A study of Sus scrofa with 8 samples.

Results

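The regions described here are peaks of the histone mark H3K4me3 that lie beside gene starts but not on them. A member is a peak of H3K4me3 replicate 1 on chromosomes 1 to 18 and X that overlaps a replicate 2 peak by at least 1 bp and whose interval lies more than 1 kb and at most 5 kb from the nearest RefSeq transcription start site (TSS) of Sscrofa11.1. In all, 3159 such flanking peaks were found among 34128 shared peaks, out of 37495 replicate 1 peaks on these chromosomes and 37932 deposited. The other shared peaks were 12950 proximal peaks, within 1 kb of a TSS, and 18019 distal peaks, beyond 5 kb. The positions and overlap of the H3K4me3 replicates and the TSS distance chose the members, so that distance, width and enrichment of H3K4me3 are given as description, without a test.

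The study examined chromatin structure in pig embryos, with ChIP-seq of pig embryonic fibroblasts (PEFs) as one part. In ChIP-seq, DNA bound to a protein is pulled down with an antibody and sequenced, and a peak is an interval where the pulled-down DNA exceeds a control. H3K4me3, H3K27ac and the DNA-binding protein CTCF were each profiled in 2 libraries, making 6. All came from untreated PEFs of Large White pigs, prepared from fetuses at 35 days by mechanical dissociation and collagenase and cultured for 24 h, so that they are primary cells and may hold several cell types. The labels do not say whether the replicates came from separate fetuses or cultures, and the spread between them may therefore be technical. Input libraries were not analysed here.

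The lists held 37932 and 43516 H3K4me3 peaks, 74983 and 81164 H3K27ac peaks, and 40289 and 44682 CTCF peaks in replicates 1 and 2. They give no read counts, so that the number of reads behind a peak is unknown. The cell type label was checked at TSSs. All 13 fibroblast genes examined, including COL1A1, VIM and PRRX1, had a peak of both histone marks within 1 kb of the TSS in both replicates. Of 15 gene records for 14 markers of other cell types, 7 had H3K4me3 in both replicates and 1 had both marks. PTPRC, CD3E, PECAM1, CDH5 and ALB, which mark blood, endothelial and liver cells, lacked H3K4me3, whereas the 7 with it included EPCAM, CDH1 and KRT8, which mark epithelial cells, the neural gene NEUROD1 and the muscle gene MYOD1.

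H3K4me3 is laid down by methyltransferases of the SET1 and MLL families, which are drawn in part by unmethylated CpG islands, and it is highest at the starts of active and poised genes. H3K27ac marks active promoters and enhancers, and it is absent from repressed CpG islands, which can still carry H3K4me3 together with a Polycomb mark. CTCF binds a long DNA motif and holds the base of chromatin loops, and its sites are frequent near promoters.

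Sequences at 7 named members show the range of base composition behind the overlaps described next. Each is 90 bp on both sides of the H3K4me3 replicate 1 summit, the base of highest enrichment, read 5′ to 3′ on the forward strand of Sscrofa11.1, with CpG dinucleotides in capitals. The first 4 are rich in CpG and the next 2 are poor. The last is 45 bp on both sides of the CTCF replicate 2 summit at the member with the highest CTCF enrichment, with the letters AGGNGGC of the CTCF motif core in capitals.
LOC106504565: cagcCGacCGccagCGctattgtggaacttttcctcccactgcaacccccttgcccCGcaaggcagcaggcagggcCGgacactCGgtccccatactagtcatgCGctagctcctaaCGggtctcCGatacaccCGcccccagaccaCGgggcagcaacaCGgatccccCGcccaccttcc
SMAD6: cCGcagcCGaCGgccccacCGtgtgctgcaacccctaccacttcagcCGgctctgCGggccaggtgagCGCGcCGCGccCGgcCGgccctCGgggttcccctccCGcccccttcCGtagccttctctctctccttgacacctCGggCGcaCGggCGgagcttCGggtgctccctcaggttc
MSX1: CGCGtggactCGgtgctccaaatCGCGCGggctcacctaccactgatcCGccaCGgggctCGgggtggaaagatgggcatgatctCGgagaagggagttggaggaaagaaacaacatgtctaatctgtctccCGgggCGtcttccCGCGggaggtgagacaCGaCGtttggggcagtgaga
FOXD1: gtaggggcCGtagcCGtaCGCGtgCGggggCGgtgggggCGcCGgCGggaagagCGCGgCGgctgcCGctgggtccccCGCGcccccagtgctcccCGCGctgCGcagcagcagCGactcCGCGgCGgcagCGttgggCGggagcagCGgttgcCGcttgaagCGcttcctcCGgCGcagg
ITGB1: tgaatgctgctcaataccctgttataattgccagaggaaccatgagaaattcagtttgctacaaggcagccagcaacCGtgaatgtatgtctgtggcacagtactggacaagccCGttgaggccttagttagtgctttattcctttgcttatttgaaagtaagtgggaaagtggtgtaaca
LOXL1: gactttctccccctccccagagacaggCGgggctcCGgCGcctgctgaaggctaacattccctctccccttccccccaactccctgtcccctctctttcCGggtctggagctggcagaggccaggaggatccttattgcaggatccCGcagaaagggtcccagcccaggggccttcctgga
GBX1: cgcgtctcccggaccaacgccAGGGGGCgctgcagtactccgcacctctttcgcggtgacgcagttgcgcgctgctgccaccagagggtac

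The first window, chr7:47043388-47043568, is intergenic and lies upstream of a long noncoding RNA locus. It holds 13 CpGs. The SMAD6 window, chr1:164657837-164658017, holds 20 CpGs, and 63 of its bases are annotated as coding. The MSX1 window, chr8:5635363-5635543, is intergenic with 16 CpGs, and the FOXD1 window, chr2:82608421-82608601, lies in the coding part of exon 1 with 29. By contrast, the ITGB1 window, chr10:56135261-56135441, holds 2 CpGs and the LOXL1 window, chr7:59509044-59509224, holds 5. The former is intergenic, and the latter lies upstream of LOXL1 in an intron of another gene model. The GBX1 window, chr18:6054114-6054204, is intergenic.

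Flanking peaks lay more often downstream of the nearest TSS, on the transcribed side, than upstream of it. By gene strand, 1916 members (60.7%) were downstream and 1243 (39.3%) upstream. The genome itself is nearly balanced at this distance, with 98.3 Mb of bases downstream and 89.4 Mb upstream (52.4% and 47.6%). Per Mb, there were 19.5 peaks downstream and 13.9 upstream, a ratio of 1.40. When the rule was applied with the roles of the replicates exchanged, 2874 peaks gave a ratio of 1.33 and 40.6% were upstream. When the summit was used in place of the whole interval to set the distance, 31.5% of 4140 peaks were upstream. There a peak interval could come within 1 kb of a TSS or cover it, so this share describes partly other regions.

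This side preference was present across the whole window, and was not particular to it. In replicate 1, peaks at most 500 bp from a TSS but not covering it numbered 47.9 per Mb downstream and 10.2 upstream. From 5000 to 5500 bp the values were 19.6 and 13.8. Between 5000 and 10000 bp, only the step from 7000 to 7500 bp had more upstream, 14.7 against 14.0 downstream. In the 500 bp steps between 1 and 5 kb, replicate 1 had from 18.3 to 21.8 H3K4me3 peaks per Mb downstream and from 11.7 to 15.9 upstream, so that the sides did not overlap. Replicate 2 had from 15.6 to 19.8 downstream and from 10.4 to 14.3 upstream. H3K27ac peaks selected by the same rule had ratios of 1.22 and 1.21 in replicates 1 and 2. CTCF peaks had ratios of 0.975 and 0.965. The ratio was thus above 1 for both histone marks and below 1 for CTCF in each replicate.

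**Figure D1:**
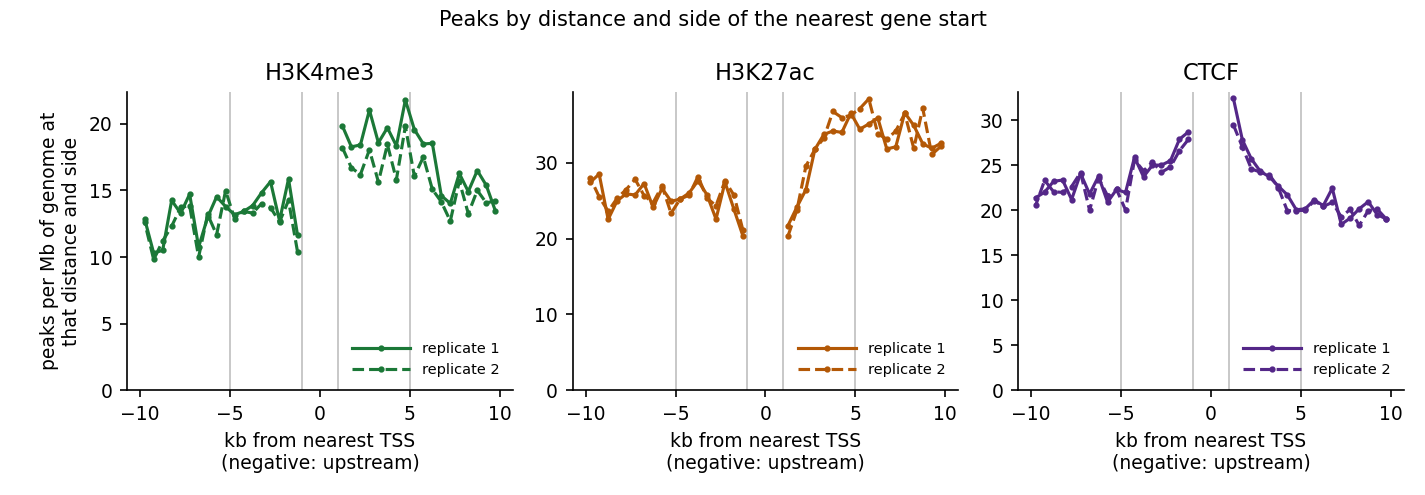
Number of shared peaks per Mb of genome (vertical axis) by distance of the peak interval from the nearest TSS in kb (horizontal axis, negative is upstream), in 500 bp steps from 1 kb outward, for the 3 targets. Solid lines are replicate 1 and dashed lines replicate 2, and vertical lines mark 1 and 5 kb. Between 1 and 5 kb, H3K4me3 replicate 1 stays between 18.3 and 21.8 downstream and between 11.7 and 15.9 upstream.

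H3K4me3 peaks in the flanks were narrower and weaker than those on gene starts. Their median width was 1093 bp (interquartile range 682.5 to 1743), against 2584 bp for proximal and 863 bp for distal peaks. Downstream members had a median of 1175 bp and upstream members 970 bp. Median fold enrichment over the control, as deposited, was 8.19 in replicate 1 and 8.05 in replicate 2. The same values were 49.8 and 24.2 in proximal peaks and 5.74 and 5.71 in distal peaks. With increasing distance downstream, the median width went from 1401 bp at 1 to 2 kb to 1030 bp at 4 to 5 kb, and fold enrichment in replicate 1 from 16.4 to 6.66. Upstream members varied less, with medians between 931.5 and 1033.5 bp and between 7.14 and 7.92 over the same 4 bands.

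Replicate agreement differed between subsets of the members. For 433 of them (13.7%), the overlapping replicate 2 peak extended to within 1 kb of a TSS, and would itself count as proximal. Their median fold enrichment was 4.92 in replicate 1 and 23.2 in replicate 2, and Spearman's rho across these peaks was −0.135. In the remaining 2726 members the medians were 9.06 and 7.04, and rho was 0.892. Peaks are not independent replicates, and each fold enrichment belongs to the highest point of its interval. Of the 433, 315 were downstream and 118 upstream. FBN1, which encodes the microfibril protein fibrillin-1, gives an example. Its 363 bp member, with the summit in intron 1, had 2.88 in replicate 1, and the replicate 2 peak on it had 24.6. Without the 433, 41.3% of members were upstream.

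**Figure D2:**
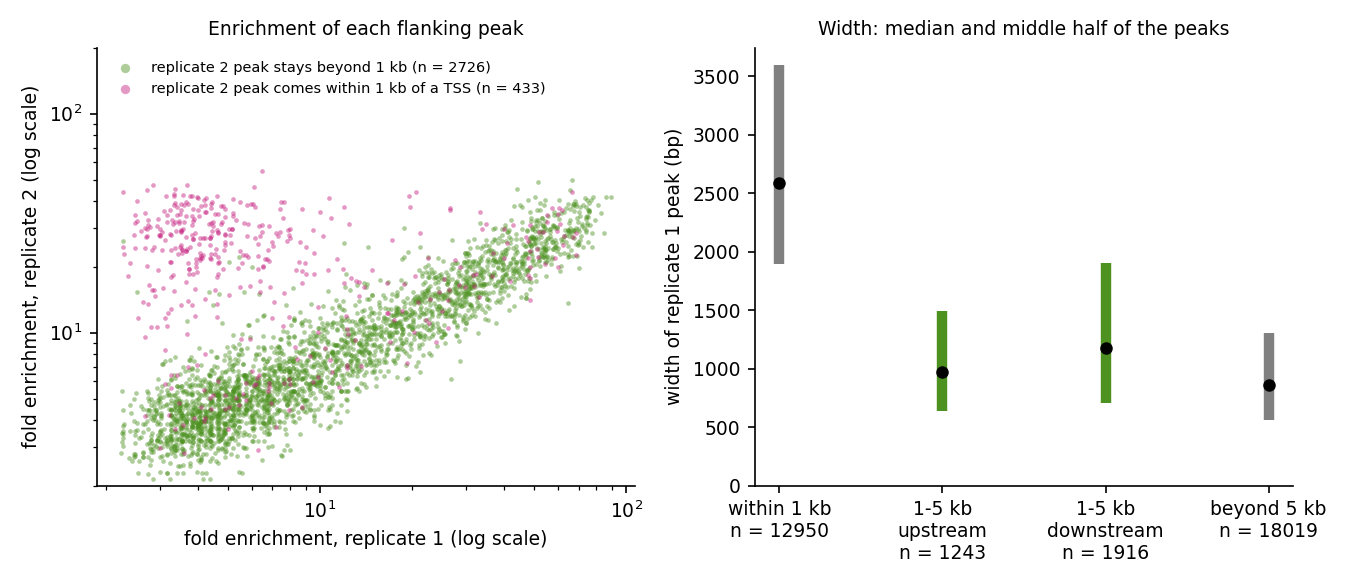
Left, fold enrichment over the control of each flanking peak in replicate 1 (horizontal) and of the replicate 2 peak on it (vertical), both on log scales, coloured by whether the replicate 2 peak comes within 1 kb of a TSS. The 433 peaks for which it does have medians of 4.92 and 23.2 and lie mostly above the band formed by the other 2726. Right, median width in bp (points) and interquartile range (bars) by class, with the flanking peaks between proximal and distal ones.

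Peaks close to the limits of the rule carried a wide range of values. Just inside 1 kb were a peak at LOC110256436 at 1003 bp with fold enrichment 47.2 and 27.2, and one at the tRNA gene TRNAE-UUC at 1005 bp with 8.74 and 4.59. Just outside were peaks at LOC102158149 at 1000 bp, with 3.69 and 7.25, and at LOC110256962 at 998 bp, with 2.67 and 3.47. At the other limit, the peaks at SP9 (4998 bp; 15.7 and 17.5) and CALCOCO2 (4999 bp; 4.51 and 3.13) were inside. Peaks at NFATC4 (4.64 and 4.19) and PRKCD (20.5 and 13.4), both at 5001 bp, were outside. By chromosome, members numbered from 63 on chromosome 16 to 339 on chromosome 6, and made up between 6.97% and 11.9% of the shared peaks.

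Taken over all widths and enrichments, H3K27ac was less frequent on flanking peaks than on either other class. A H3K27ac peak overlapped 2076 members (65.7%) in replicate 1 and 2159 (68.3%) in replicate 2, against 76.9% and 78.6% of all shared H3K4me3 peaks. The mean was 67.0% ± 1.86 (SD, n = 2), compared with 85.2% ± 1.24 for proximal and 74.3% ± 1.05 for distal peaks. The difference from proximal peaks was −18.2 percentage points ± 0.618 and that from distal peaks −7.31 ± 0.810. Both were larger than the spread between replicates and had the same sign in each. The exact paired permutation test gave p = 0.5 for each difference, which is the smallest value 2 replicates allow. Asking whether the H3K4me3 summit base itself lay in a H3K27ac peak, as it did for 75.4% and 77.1% of all shared peaks, gave −19.2 ± 1.08 and −7.51 ± 1.30. When overlap was required to cover at least 50% of both peaks, flanking peaks were 4.04 percentage points above distal ones, so that the order of these classes depended on this choice. That setting also applied to the overlap of the H3K4me3 replicates, which left 2443 members.

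Because wide peaks have more room for overlap, the comparison was repeated among peaks of like width, with limits at 734, 1332 and 2455 bp. Flanking peaks were below distal peaks in all 4 width classes, with means of 59.6%, 61.6%, 74.9% and 82.4% from narrow to wide. Distal peaks had 66.6%, 74.5%, 84.4% and 94.8%. Against proximal peaks the order depended on width. Proximal peaks up to 734 bp had 38.0% and those up to 1332 bp had 45.1%, lower than flanking peaks, whereas wider ones had 81.7% and 95.9%. The order also depended on H3K4me3 enrichment, averaged over the replicates. Up to 5.11-fold, the means were 64.3% for flanking, 46.1% for proximal and 73.9% for distal peaks. Up to 11.09-fold they were 60.1%, 41.8% and 72.5%, and up to 34.4-fold 67.3%, 73.1% and 73.9%. Beyond that they were 97.5%, 98.8% and 97.8%. Among peaks of like CpG content, described later, flanking peaks were below distal ones in 4 of 5 classes and above them in the largest flanking class. Of the members with H3K27ac, 23.4% in replicate 1 and 21.9% in replicate 2 had a H3K27ac peak that also came within 1 kb of a TSS.

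H3K27ac overlap of upstream and downstream members was 67.1% ± 1.76 and 67.0% ± 1.92. The difference was −0.151 percentage points in replicate 1 and 0.0691 in replicate 2 (exact permutation test, p = 1). It was 6.28 with distance set by the summit and 3.06 with at least 50% overlap of both peaks, higher downstream in each. The sides also differed when members were divided by distance. Between 1 and 2 kb, 67.9% and 72.5% of upstream members overlapped H3K27ac, compared with 59.9% and 64.4% of downstream members. Between 4 and 5 kb, the shares were 64.0% and 64.7% upstream, and 71.5% and 74.0% downstream. The order of the sides was thus opposite at the ends of the window, in both replicates.

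CTCF overlapped 768 members (24.3%) in replicate 1 and 860 (27.2%) in replicate 2, near the 22.6% and 26.3% of all shared H3K4me3 peaks. The mean of 25.8% ± 2.06 lay between 31.8% ± 3.88 for proximal and 18.96% ± 1.82 for distal peaks, with differences of −6.03 ± 1.82 and 6.81 ± 0.235 percentage points. At the H3K4me3 summit base the order was different, and flanking peaks were highest. CTCF covered the summit of 16.9% ± 2.17 of flanking, 10.5% ± 3.55 of proximal and 12.6% ± 1.76 of distal peaks, and of 10.5% and 14% of all shared peaks in replicates 1 and 2. These differences were 6.37 ± 1.38 and 4.27 ± 0.413, positive in each replicate (exact paired permutation test, p = 0.5 for each of the 4). In all 4 width classes flanking peaks also had the highest CTCF overlap of the 3 classes in each replicate, from 18.3% in the narrowest to 41.3% in the widest. Among peaks of like H3K4me3 enrichment, flanking peaks were highest in both replicates up to 11.09-fold. Above that, distal peaks were higher, with 31.9% and 35.4% against 30.0% and 33.1% up to 34.4-fold, and 34.0% and 41.1% against 32.9% and 37.2% beyond it. With at least 50% overlap of both peaks, CTCF on flanking peaks was 11.4%, and 8.77 percentage points above proximal peaks. Median widths were 676 and 776 bp for CTCF peaks and 2584 bp for proximal peaks. A typical CTCF peak could thus not cover 50% of a typical proximal peak, and this setting cannot order these classes. The setting also applied to the overlap of the H3K4me3 replicates, which left 2443 members. The order of the classes therefore depended on width, enrichment and the point measured.

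Among the members, upstream peaks carried CTCF more often, at 28.5% ± 1.54 compared with 24.0% ± 2.40 downstream. The difference, downstream minus upstream, was −5.15 and −3.93 percentage points in replicates 1 and 2, and −5.73 and −5.703 at the summit base (exact permutation test, p = 0.5 for both measures). With distance set by the summit, this difference became 0.650. CTCF summits fell inside the member for 689 of 797 CTCF peaks in replicate 1 and 758 of 888 in replicate 2, at a median of 271 and 272 bp from the H3K4me3 summit. They did not favour the side of the peak that faced the TSS, on which 51.2% and 51.6% lay. Median CTCF enrichment was 22.7 and 24.0 on members, and 19.7 and 19.2 over all CTCF peaks.

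**Figure D3:**
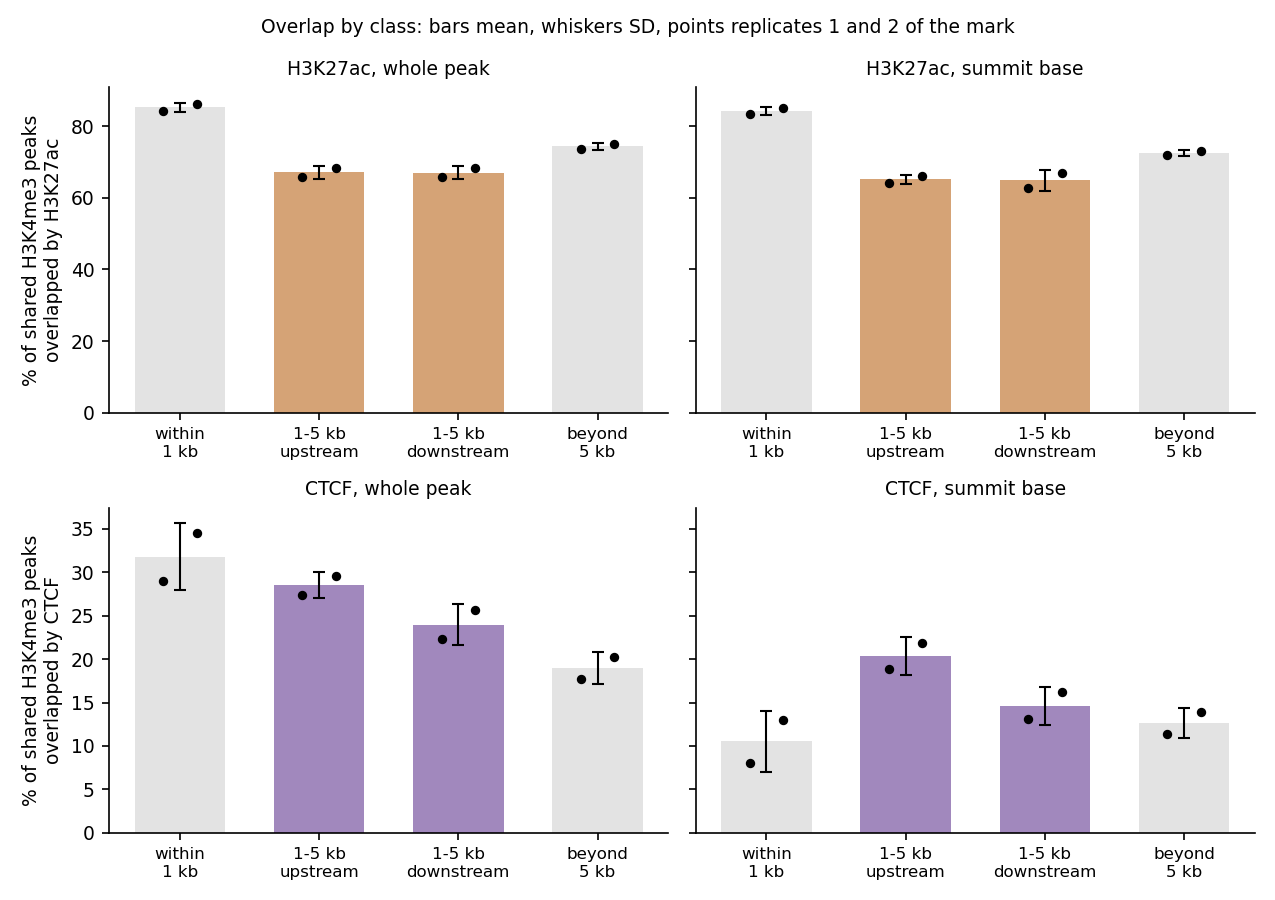
Percent of shared H3K4me3 peaks overlapped by H3K27ac (top) and CTCF (bottom), by position of the peak, for the whole peak (left) and for its summit base (right). Bars are means, whiskers SD and points the replicates of the mark (n = 2). H3K27ac is lowest in both flanking groups, at 67.1% and 67.0% for the whole peak, and CTCF at the summit is highest upstream, at 20.4%.

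Taking both replicates together, 1468 members (46.5%) had H3K27ac without CTCF, 474 (15.0%) had both, 234 (7.41%) had CTCF without H3K27ac and 676 (21.4%) had neither. Over all shared peaks these shares were 54.7%, 16.8%, 4.28% and 15.0%. In the remaining 307 the replicates differed. Members with both were the widest, with a median of 1572 bp, and had the highest H3K4me3 enrichment, 19.01 and 12.5. Members with neither had 883.5 bp, 6.52 and 6.41. The strongest CTCF was at GBX1, a homeobox gene, where a 2692 bp member upstream had CTCF enrichment of 85.9 and 99.7 together with modest H3K27ac of 7.30 and 6.49. At PSMD6, which encodes a proteasome subunit, a member with its summit in intron 1 had CTCF of 85.4 and 91.1 and H3K27ac of 23.4 and 24.6.

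Base composition separated members with H3K27ac from those without. The CpG observed to expected ratio compares the number of CpGs with that expected from the C and G content, and values of 0.6 or more are typical of CpG islands. Flanking peaks had a median ratio of 0.457, between 0.614 in proximal and 0.356 in distal peaks, and a median GC content of 54.4%. In all, 905 members (28.6%) reached 0.6, near the 31% of all shared peaks. Their H3K4me3 enrichment was higher, 19.9 and 11.9 against 6.28 and 6.66 below 0.6. Yet H3K27ac overlapped 45.9% and 49.2% of them, compared with 73.7% and 76.0% of the other 2254. CTCF went the other way, with 30.9% and 34.9% against 21.7% and 24.1%, but did not rise throughout. It was 30.6% and 33.1% at ratios from 0.4, 32.4% and 36.5% from 0.6, and 24.4% and 28.0% from 0.8.

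For H3K27ac the relation was graded. H3K27ac overlap in replicate 1 was 82.0% in members with a ratio under 0.2, 77.0% from 0.2, 66.7% from 0.4, 49.7% from 0.6 and 29.2% from 0.8, and replicate 2 followed the same order from 83.1% to 33.9%. Distal peaks went from 88.8% to 37.8% in replicate 1, and between 0.4 and 0.6 they had 65.4% and 68.5%, below the 66.7% and 70.3% of flanking peaks. Proximal peaks had 86.5% in the lowest and 66.4% in the highest class, with 91.0% between 0.4 and 0.6. The numbers of members per class were 439, 878, 937, 737 and 168. Members with neither H3K27ac nor CTCF had a median ratio of 0.573, and those with H3K27ac alone 0.364.

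**Figure D4:**
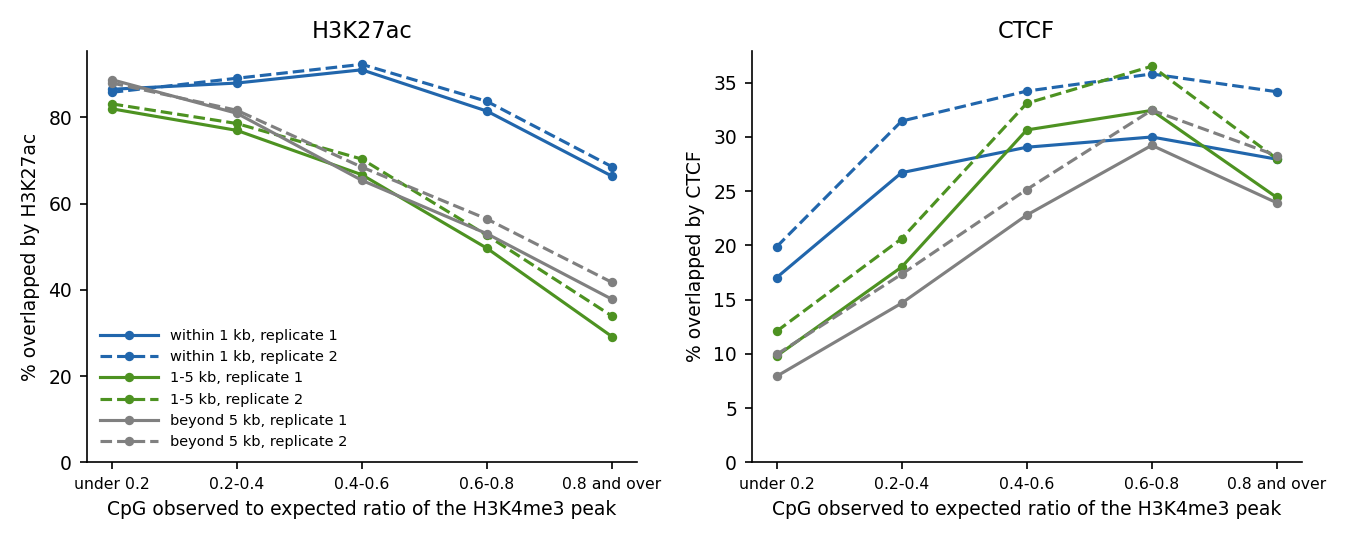
Percent of shared H3K4me3 peaks overlapped by H3K27ac (left) and CTCF (right) against the CpG observed to expected ratio of the peak, for proximal (within 1 kb), flanking (1 to 5 kb) and distal (beyond 5 kb) peaks. Solid lines are replicate 1 of the mark and dashed lines replicate 2. In flanking peaks H3K27ac falls from 82.0% to 29.2% in replicate 1, while proximal peaks stay at 66.4% or above.

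Motif letters within 150 bp of the H3K4me3 summit, searched on both strands, were at intermediate frequency in flanking peaks. The AP-1 letters TGANTCA occurred at 7.95% of members, against 8.35% of all shared peaks, 2.72% of proximal and 12.5% of distal peaks. GC boxes, GGGCGG, occurred at 37.8%, against 38.4%, 59.1% and 23.7%. The ETS letters CCGGAAG were at 3.96% and the CTCF core AGGNGGC at 33.9%, near the 4.38% and 34.2% of all shared peaks. Upstream members had AP-1 letters at 9.41% and downstream members at 6.99%. Within the members, AP-1 letters were at 10.97% of those with H3K27ac alone, near the 10.2% of all shared peaks with it alone, and at 2 of 234 (0.855%) of those with CTCF alone, against 4.38%. A match is a description of the letters and not evidence of binding.

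A H3K4me3 peak at the TSS of the nearest gene accompanied about as many members as it did genes in general. The nearest TSS had a replicate 1 peak within 1 kb for 55.6% of members and a replicate 2 peak for 57.4%, against 56.1% and 56.3% of all 28077 genes. It had one in both replicates for 1704 members and in neither for 1293. The share with both was 60.6% upstream and 49.6% downstream. For members whose nearest TSS had a replicate 1 peak, the gap to the nearest replicate 1 peak within 1 kb of any TSS was measured. It was 1626 bp at the median and 323 bp at the least. Overlap with H3K27ac was similar in the 1704 (65.4% and 67.2%) and the 1293 (66.0% and 69.5%).

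Members beside genes without a TSS peak were stronger on the downstream side. Median enrichment in replicate 1 was 14.7 in 849 such downstream members, compared with 6.10 in the 951 whose TSS had a peak in both replicates, and replicate 2 gave 9.91 and 8.38. Upstream, the values were 7.10 and 7.58 in replicate 1. Another annotated transcript start lay within 1 kb of 25.6% of the 849 downstream members and 11.9% of the 951. Downstream members also included 315 under a replicate 2 peak that came within 1 kb of a TSS. Over both sides, the 433 such members had a replicate 1 median of 4.92. The part of these features in the downstream difference was not tested. In all, 494 members (15.6%) reached 32.7-fold, the lower quartile of proximal peaks in replicate 1. They included 27.3% of downstream members without a TSS peak and 9.36% of those with one. These 494 were wide, with a median of 2291.5 bp, and H3K27ac overlapped 88.5% and 90.9% of them. The 1321 distal peaks that reached the same limit were alike, with 2343 bp, 90.9% and 92.8%.

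The distance was taken from 1 start per gene, so that the starts of other annotated transcripts were examined separately. One lay within 1 kb of 401 members (12.7%), against 8.1% of all shared peaks beyond 1 kb of a gene TSS, and of 18.3% of downstream but 4.02% of upstream members. Of the 494 strong members, 42.5% had one, as did 46.0% of the 1321 distal peaks of the same strength. With distance set by the summit, the share over the peaks that met the rule was 42.7%. There a peak interval could reach the gene's own start, which was counted too, so that this value cannot be set beside the 12.7%. The 401 had a median width of 2031 bp and enrichment of 34.9 and 18.7, compared with 1005.5 bp, 7.18 and 7.25 in the other 2758. H3K27ac overlapped 75.8% and 80.3% of them, against 64.2% and 66.6%. When distances were measured to the starts of all 75947 transcripts, 3318 peaks met the rule and 41.1% were upstream.

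By position, 44.2% of member summits lay in introns, 24.7% in exons and 31.1% between genes. Downstream members were mostly in the nearest gene itself (87.7%). Upstream summits were intergenic in 66.5%, and otherwise lay in another gene. The nearest gene was protein-coding for 74.0% of members and a long noncoding RNA for 19.5%, near the 69.4% and 19.2% of all genes.

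The members of highest mean enrichment upstream of a TSS were at LOC102165042, with enrichment of 89.0 and 41.4, and LOC106504565, with 85.8 and 41.7. Both loci encode long noncoding RNAs and had no H3K4me3 peak at the TSS in either replicate. The others among the 5 highest were EEFSEC, which encodes the elongation factor for selenocysteine (84.9 and 28.5), PML, the organiser of PML nuclear bodies (82.7 and 35.3), and LOC100627836 (73.2 and 41.1). LOC100627836 also had no H3K4me3 peak at its TSS in either replicate, whereas EEFSEC and PML had one in both. The first 2 loci and LOC100627836 had H3K27ac between 17.2 and 35.9. At EEFSEC and PML it was between 15.7 and 27.1, and all 5 members had it in both replicates. The start of another annotated transcript lay inside the members at EEFSEC, PML and LOC100627836, but not at LOC102165042 or LOC106504565.

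Downstream, TCP11L2 had the highest mean over the replicates, with 78.1 and 41.8. PPP1R15B, a regulatory subunit of the phosphatase that acts on eIF2α, was highest in replicate 1, with 80.9 and 38.4 over 6710 bp. Its summit lay in exon 1, and it had H3K27ac of 41.0 and 56.8. NCBP2, a subunit of the nuclear cap-binding complex, had 76.9 and 40.2. SP3, a factor that binds GC boxes, had 66.6 and 49.6, and FBLIM1, a filamin-binding adhesion protein, had 74.3 and 40.4. None of these 5 genes had a H3K4me3 peak within 1 kb of its TSS in either replicate. The start of another annotated transcript lay inside the members at TCP11L2, SP3 and FBLIM1, but not at PPP1R15B or NCBP2. All 5 members had H3K27ac in both.

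The widest members covered many kilobases. FN1, which encodes fibronectin, had a member of 13160 bp starting 3674 bp downstream, with enrichment of 44.0 and 45.3 and H3K27ac of 30.5 and 28.1. A separate H3K4me3 peak near the FN1 start had 3.13 and 5.38. CAVIN1, a coat protein of caveolae, had a downstream member of 11650 bp with 54.97 and 32.0. SPARC, a matrix-binding glycoprotein, had an upstream member of 9128 bp with 64.7 and 38.6, and its summit lay in an intron of an overlapping gene model. It also had downstream members of 1150 and 485 bp with 6.71 and 2.92 in replicate 1, both under the same replicate 2 peak of 4.45. LOC110261090 had an upstream member 8708 bp wide. FN1 and CAVIN1 had no CTCF on the member, whereas the wide SPARC member had CTCF of 55.9 and 44.9.

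**Figure D5:**
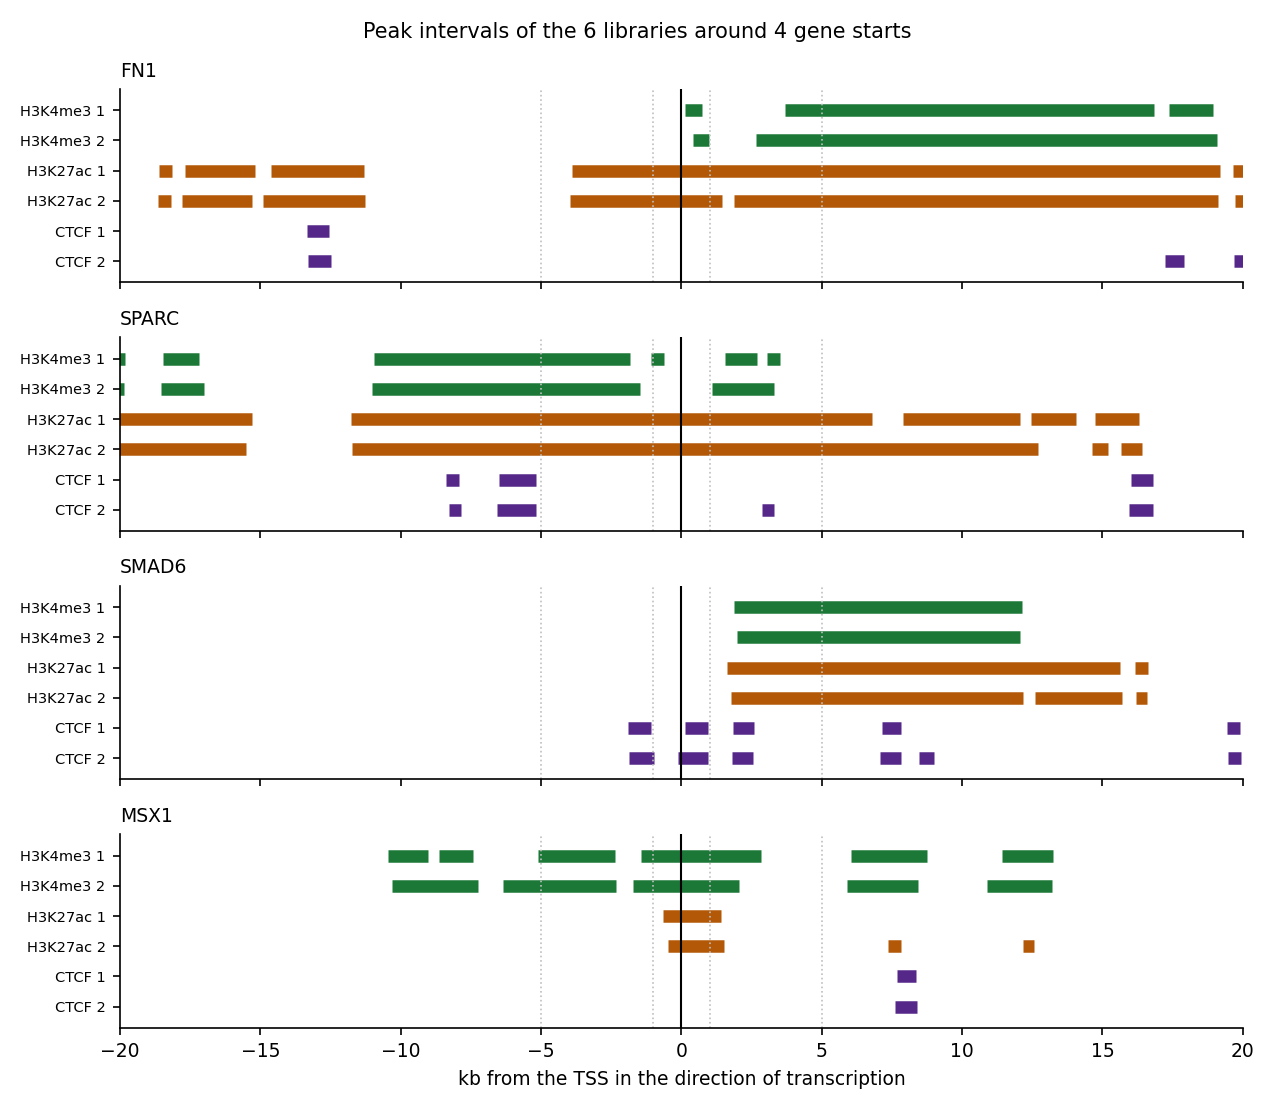
Peak intervals of the 6 libraries (rows, with the replicate number) around the annotated starts of FN1, SPARC, SMAD6 and MSX1, in kb from the TSS along the direction of transcription. The solid line marks the TSS and dotted lines 1 and 5 kb on both sides, and the view ends at 20 kb. The long H3K4me3 peak lies downstream of the start in FN1 and SMAD6 and upstream in SPARC, each under H3K27ac, while the upstream MSX1 peak has neither H3K27ac nor CTCF.

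Of 28077 genes, 2899 (10.3%) were nearest to at least 1 member, 2657 of them to exactly 1. LOC100737472 had the most, with 4 members. There the member of 3219 bp had H3K27ac of 3.98 and 4.01, and the other 3 had none.

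Gene lists, which were chosen with earlier results of these data known, differed in how often they had a flanking peak, as a description beside the 10.3% of all genes. Genes encoding mesenchymal transcription factors had 18 of 44 (40.9%), HOX genes 10 of 36 (27.8%), TGF-β, BMP and SMAD genes 10 of 37 records (27.03%) and fibroblast matrix and surface genes 8 of 32. Cytoskeletal genes had 4 of 25, AP-1 and immediate early genes 4 of 28 and genes of other cell types 4 of 28 records. Ribosomal protein genes had 6 of 81 (7.41%). By side, the 18 mesenchymal factors had 10 genes with an upstream and 8 with a downstream member, and the TGF-β list had 3 and 7, where 4.31% and 6.56% of all genes had one.

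Over all members, 63.9% had H3K27ac in both replicates, 29.9% in neither and 28.6% had a CpG ratio of at least 0.6, and the lists are described beside these shares, with no test between them. The 10 members at 8 fibroblast genes (FBN1, FN1, ITGA5, ITGB1, LOX, LOXL1, PDGFRB and SPARC) all had H3K27ac in both replicates, none had a CpG ratio of 0.6, and their median enrichment was 4.88 and 5.68. ITGB1, the integrin β1 chain, had a member of 1074 bp upstream with H3K4me3 of 4.03 and 4.54 but H3K27ac of 15.3 and 10.7. LOXL1, an enzyme that crosslinks elastin and collagen, had 5.40 and 4.46 with H3K27ac of 26.5 and 37.8. ITGA5, the fibronectin receptor α chain, had 7.42 and 6.81 with 27.6 and 32.2. The sequences at the ITGB1 and LOXL1 summits, with few CpGs, are among those shown above.

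The 18 members at mesenchymal factors were wider, with a median of 2112.5 bp, and 13 had a CpG ratio of at least 0.6. H3K27ac was on 12 in both replicates (66.7%) and on 6 in neither (33.3%), near the shares over all members. Those without it included members at MSX1, SIX2, TBX4, MEOX1 and FOXD2. MSX1, a homeobox factor of craniofacial and limb mesenchyme, had H3K4me3 of 29.0 and 15.3 over 2741 bp and no H3K27ac, although its TSS carried H3K27ac of 12.5 and 15.5. FOXD1, a forkhead factor, had 51.5 and 22.2 with H3K27ac of 10.9 and 15.5. Among the others with H3K27ac were TBX15 (30.1 and 16.9, with 16.2 and 14.6) and MSX2 (39.6 and 20.5, with 4.20 and 5.06). TWIST2, a basic helix-loop-helix factor, had 7.43 and 28.9, and its replicate 2 peak reached the TSS.

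HOX genes set position along the body axis, and their 15 members were divided between 6 with H3K27ac in both replicates and 7 in neither. HOXD8 had the strongest, an upstream member 4304 bp wide with H3K4me3 of 52.0 and 21.3 and H3K27ac of 19.1 and 19.9. HOXC11 had 24.3 and 12.8 with 5.88 and 6.69. HOXB13 had 3 members, with H3K4me3 of 17.8, 4.33 and 9.56 in replicate 1 and no H3K27ac on any. HOXA13 and HOXC13 also had none.

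In the TGF-β list, 8 of 11 members had H3K27ac in both replicates (72.7%) and 3 in neither (27.3%), near the shares over all members. SMAD6, an inhibitory SMAD, had the widest, 10282 bp with its summit in intron 1. It had H3K4me3 of 68.5 and 25.3 and H3K27ac of 17.1 and 25.4. The annotated TSS of SMAD6 had no H3K4me3 peak. SMAD7, which has a like role, had a weak upstream member, 5.55 and 3.96, with H3K27ac of 23.0 and 9.41. The growth factor gene TGFB3 had 47.8 and 26.3 downstream. The ligand gene INHBA had 13.5 and 14.8 upstream. The receptor genes ACVR2B and BMPR1B and the signal transducer gene SMAD5 were those without H3K27ac.

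AP-1 and immediate early genes had 4 members, at FOSL1, JUND, MAFF and ATF3, all with H3K27ac in both replicates and none with a CpG ratio of 0.6. ATF3 had the highest H3K4me3 enrichment of these, 30.0 and 22.4, and no peak at its TSS. FOSL1 had 4.89 and 3.83 with H3K27ac of 27.9 and 32.9. All 4 members at cytoskeletal genes (CNN1, CTTN, PDLIM7 and TPM4) had H3K27ac, and TPM4, a tropomyosin, had the highest H3K4me3, 73.9 and 33.8.

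Genes of other cell types had 5 members, at GFAP, MYOD1, NEUROD1 and NEUROG2. Of these 5, 4 had H3K27ac in neither replicate, where 29.9% of all members had it in neither. The exception was an upstream member of NEUROG2, a neurogenic factor, with H3K4me3 of 45.2 and 18.3 and weak H3K27ac of 3.48 and 2.93. MYOD1, the myogenic factor, had H3K4me3 of 11.8 and 10.8, and NEUROD1 had 13.6 and 5.92, both without H3K27ac. GFAP, an astrocyte filament gene, had 27.9 and 12.9 with CTCF of 32.1 and 34.6. The part that rare cells of other types in the culture had in these peaks was not tested.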

How the data were processed

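ChIP-seq of H3K4me3, H3K27ac and CTCF in PEFs gave 6 libraries, 2 per target. The authors aligned the reads using bowtie2, retained pairs whose ends each mapped uniquely with a mapping quality above 5, took out duplicates using Picard, and ran MACS2 in narrow mode on every library by itself. Versions were not given in the sources used here. The deposited lists hold fold enrichment (a ratio of pulled-down to control DNA), p-values and q-values as −log10, and an integer score, which was not used. The stated q-value was 0.01, but between 0.0560% and 3.06% of peaks per list had a higher one.

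TSSs were the 5′ ends of 28077 RefSeq genes (annotation release 106, Sscrofa11.1), and the distance of a peak was that of its nearest base. Replicates of H3K27ac and CTCF were scored separately on the same H3K4me3 peaks. Differences between classes were tested over the 2 replicates with an exact paired permutation test, and no test was made over peaks. Overlap, distance and side computations were tested on simulated data (Python 3.11.15, numpy 2.4.6, pandas 2.3.3, scipy 1.17.1).

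Named members were, on each side, the 5 of highest mean H3K4me3 enrichment and the 2 widest, the 2 of highest CTCF, the 3 highest without a TSS peak, the 2 genes with most members, those at the limits, and genes of 8 lists. The members and lists were chosen with earlier results of these data known. Alternatives covered a stricter q-value, 50% overlap, protein-coding genes, all transcript starts, summit distance and left-out replicates. Added after seeing the data were overlap at the summit base, classes of width, enrichment and CpG content, and leaving out H3K4me3 replicates or peaks that reach a TSS in replicate 2. Peaks on chromosome Y and scaffolds were not analysed here. Some members that meet the rule for named members are not reported here.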

Additional observations from a re-analysis of the deposited data

How the results depend on the processing

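Of 143 recomputed values over 14 results, 93 held: a share or median moved by less than the spread between replicates, a difference kept its sign, or a number of peaks stayed within 1.5 times. Of the rest, 42 moved by more and 8 changed sign. The number of flanking peaks stayed within 1.5 times of 3159, from 2443 with 50% overlap to 4140 with summit distance, and from 3621 to 3715 with either H3K4me3 replicate alone. With summit distance, a peak interval could reach or cover a TSS, so the values of that setting describe partly other regions.

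The upstream share was 40.7% with 50% overlap, 41.1% with all transcript starts, 31.5% with summit distance, 40.6% with replicate 2 peaks as the base and 41.3% without peaks that reach a TSS in replicate 2, and from 40.5% to 40.8% with either H3K4me3 replicate alone. H3K27ac overlap was 63.7% with the stricter q-value (−log10 of 5 or more), 39.0% with 50% overlap and 71.6% with summit distance, and from 63.6% to 65% with either H3K4me3 replicate alone. Leaving out a H3K27ac replicate gave 65.7% to 68.3%. CTCF overlap was 28.9%, 11.4% and 30.1% under the same 3 settings, from 23.4% to 24.8% with either H3K4me3 replicate alone and from 24.3% to 27.2% without a CTCF replicate. The share with a peak at the nearest TSS was 52.7% with the stricter q-value, 49.2% with 50% overlap and 65.3% with protein-coding genes. It was 70.4% with summit distance, where a member's own interval could reach the TSS and count as that peak. The share was 52.6% with replicate 2 as the base and 50.9% without peaks that reach a TSS in replicate 2. It was from 54.6% to 57.4% with 1 replicate left out.

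The near-zero H3K27ac difference between sides, downstream minus upstream, changed sign to 0.577, 3.06, 6.28 and 0.626 percentage points with the stricter q-value, 50% overlap, summit distance and replicate 2 as the base, and was between −0.561 and 0.0691 with a replicate left out. With 50% overlap, flanking minus distal for H3K27ac became 4.04 and flanking minus proximal for CTCF 8.77. The latter set narrow CTCF peaks against wide proximal peaks, and cannot order those classes. With summit distance, the CTCF difference between sides became 0.650. The cause was not tested. Among differences that kept their sign, flanking minus proximal for H3K27ac ranged from −33.6 to −13.9, and flanking minus distal for CTCF from 2.49 to 10.9.

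No paired analysis was possible between targets because nothing in the labels pairs their replicate numbers and no model was fitted over samples. The permutation test paired classes of peaks within a library. Read depth per peak is unknown, and 2 replicates cannot reach p under 0.5. A peak's interval decided its class, so that 433 members would be proximal by replicate 2.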
